A study of Mus musculus with 46 samples.

Results

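The chromatin and DNA methylation modifiers followed here are 46 genes that write, erase or read marks on histones and DNA, or that move nucleosomes. They were chosen by name and role, with no value in the rule but with earlier results of these data known: 12 histone deacetylases and sirtuins, 6 histone acetyltransferases, 15 histone methylation genes, 6 DNA methylation genes and 7 nucleosome remodellers. All 46 were measured, by 110 of the 45037 probesets (sets of short probes against 1 transcript) and among 18193 named genes. For 45 of the 46, no difference between ethanol-exposed and control mice passed the study's threshold at any single time. The exception was 1 probeset of Smarce1, a subunit of the BAF remodelling complex, which had changed by -15.3% right after the last exposure. Over the 4 times together, probesets of Dnmt1 and Dnmt3a, the maintenance and a de novo DNA methyltransferase, and of Hdac9, a class IIa histone deacetylase, also differed between the groups. On the called probesets of Smarce1, Dnmt1 and Dnmt3a, the exposed mice had lower means at 0 h and 8 h. Their differences at 72 h were near 0. Other probesets of Smarce1 and Dnmt3a did not all share this. The called probeset of Hdac9 went from a lower mean at 0 h to a higher one at 72 h.

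The tissue came from the BNST (the bed nucleus that the stria terminalis ends in), a part of the extended amygdala rich in GABA neurons, of adult male C57BL/6J mice, and was hybridised to Affymetrix mouse arrays, 1 mouse to an array. CIE mice (chronic intermittent ethanol) went through 4 cycles of ethanol vapor, with 4 days of 16 h exposure in each and 7 days without ethanol between cycles, and were injected with 1.6 g/kg ethanol and 1 mmol/kg pyrazole, a blocker of alcohol dehydrogenase, before each cycle. Ctrl mice breathed air and received saline with the same pyrazole, so that pyrazole was common to all groups. Groups of 6 mice were taken 0 h, 8 h, 72 h and 7 d after the last session, except that CIE at 7 d had 4. This model has no group without pyrazole or injection. The values are log2 intensities, on which a difference of 1 is a doubling. In a piece of whole tissue, fewer cells of a type and less RNA per cell cannot be told apart.

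As background, DNA in the nucleus is wound on histones, and the packing sets which genes can be read. Acetyltransferases such as CREBBP and EP300 add acetyl groups to histone tails, which opens chromatin, and deacetylases (HDACs and sirtuins) remove them. Histone methyltransferases and demethylases set methyl marks that go with active or silent genes, among them the silencing mark written by the Polycomb PRC2 complex. DNA methyltransferases put methyl groups on cytosines in CG steps, TET enzymes oxidise them, and MBD proteins bind them. Remodellers of the BAF and CHD families use ATP to slide or evict nucleosomes. In the amygdala and related regions these systems have long been studied in alcohol withdrawal, with HDAC2 and DNMT1 among the best known.

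The values had been quantile normalised across arrays before deposit, so near-equal array medians were built in. Array medians lay between 6.775 and 6.828, any 2 arrays correlated at 0.981 to 0.998, and the median residual SD within groups was 0.124 for the member probesets and 0.135 for all. GABA neuron markers of this region were high (mean log2 level 10.8 to 11.2 by group) and cortical excitatory markers low (5.25 to 5.48). Markers of striatal medium spiny neurons lay between them (9.215 to 9.947 by group). Their average varied widely between mice, from 8.57 to 10.64 within Ctrl at 7 d. Where a gene had several probesets, the representative one is that with the highest mean level. Representative probesets of the members had mean levels from 5.87 to 11.5. The 1st principal component of the arrays, an axis of 27.7% of the variance over all probesets, differed between times: Ctrl mice at 8 h scored from -45.4 to -1.34 and Ctrl mice at 7 d from 17.3 to 41.4.

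Promoter sequences are printed here for Dnmt1, Dnmt3a, Smarca4 and Hdac9, 4 of the 9 members with a probeset called over the CIE time course. Each is the 250 bases before the RefSeq transcription start on GRCm38.p6, 5′ to 3′ on the gene's strand, with every CG step in capitals. Where a gene had several starts, the window with the most CG steps was taken, here and for all genes. A start up to 500 bases further upstream replaced it. The window of Dnmt1 is chr9:20952980-20953229 on the minus strand, upstream of 1 of its 3 starts. That of Dnmt3a is chr12:3806730-3806979 on the plus strand, also 1 of 3 starts. For Smarca4 it is chr9:21615919-21616168 on the plus strand, and for Hdac9, upstream of 1 of 2 starts, chr12:34528890-34529139 on the minus strand.
Dnmt1: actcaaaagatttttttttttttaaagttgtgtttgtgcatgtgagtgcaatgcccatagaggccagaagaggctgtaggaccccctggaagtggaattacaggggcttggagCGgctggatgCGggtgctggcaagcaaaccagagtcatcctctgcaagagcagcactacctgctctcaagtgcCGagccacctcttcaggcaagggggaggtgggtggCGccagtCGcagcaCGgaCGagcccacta
Dnmt3a: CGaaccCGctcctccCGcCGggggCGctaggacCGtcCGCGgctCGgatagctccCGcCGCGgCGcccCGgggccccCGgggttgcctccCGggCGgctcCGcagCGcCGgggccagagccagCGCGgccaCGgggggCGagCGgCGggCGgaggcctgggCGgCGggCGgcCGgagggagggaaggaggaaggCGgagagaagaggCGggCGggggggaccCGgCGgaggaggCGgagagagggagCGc
Smarca4: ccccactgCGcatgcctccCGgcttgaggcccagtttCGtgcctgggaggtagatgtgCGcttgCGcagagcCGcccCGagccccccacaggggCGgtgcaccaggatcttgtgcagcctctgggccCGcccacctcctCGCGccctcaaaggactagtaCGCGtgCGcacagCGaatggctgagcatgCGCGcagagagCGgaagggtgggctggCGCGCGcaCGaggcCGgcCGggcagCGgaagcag
Hdac9: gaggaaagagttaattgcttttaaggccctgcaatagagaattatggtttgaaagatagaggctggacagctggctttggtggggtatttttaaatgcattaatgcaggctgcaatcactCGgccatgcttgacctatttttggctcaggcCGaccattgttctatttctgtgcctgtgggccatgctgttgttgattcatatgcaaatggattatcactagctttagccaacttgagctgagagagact

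The 4 windows differed widely in CG steps: Dnmt3a had 38, Smarca4 25, Dnmt1 7 and Hdac9 2. Of the 46 members, 38 had a start in the table. Their windows held a median of 19 CG steps (range 2 to 51) against 6 over all 27025 genes, and 34 of the 38 (89.5%) had 10 or more, against 39.6% of all genes. The 4 below 10 were Hdac9, Dnmt1, and Hdac8 and Kat2b with 6 each. The GC box GGGCGG, searched on both strands, was in 26 of the 38 windows (68.4%) and in 33.9% of all. It occurred 5 times before Dnmt3a and 3 times before Smarca4, and not before Dnmt1 or Hdac9. CCAAT was in 39.5% of the members' windows and 34.2% of all, CACGTG in 7.89% and 6.12%, and TGACGTCA in 0 of the members' and 1.62% of all. These are descriptions of the letters in 1 short window.

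The CIE effect at each time was tested with limma on all 45037 probesets. A probeset counts as called where its adjusted p did not exceed 0.01, the study's threshold. At 0 h, 1 of the 110 member probesets (0.909%) was called, against 2.4% of all probesets. At 8 h and 72 h none was called, against 0.557% and 0.433% of all, and at 7 d no probeset on the array was called, so the share was 0. At an adjusted p of 0.05 or less, 8 member probesets of 6 genes were lower at 0 h and none higher (7.27%, with 2.87% of all lower), 2 were lower at 8 h (0.593% of all) and 2 higher at 72 h (0.975% of all). At an unadjusted p under 0.05 there were 22 at 0 h, 23 at 8 h, 12 at 72 h and 16 at 7 d, or 20%, 20.9%, 10.9% and 14.5% of the 110, against 16.5%, 10.5%, 12.6% and 4.94% of all probesets. Of the 23 at 8 h, 19 had lower CIE means (17.3%, with 6.14% of all) and 4 higher ones (3.64%, with 4.39% of all). The p-values measure the spread between these mice.

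**Figure D1:**
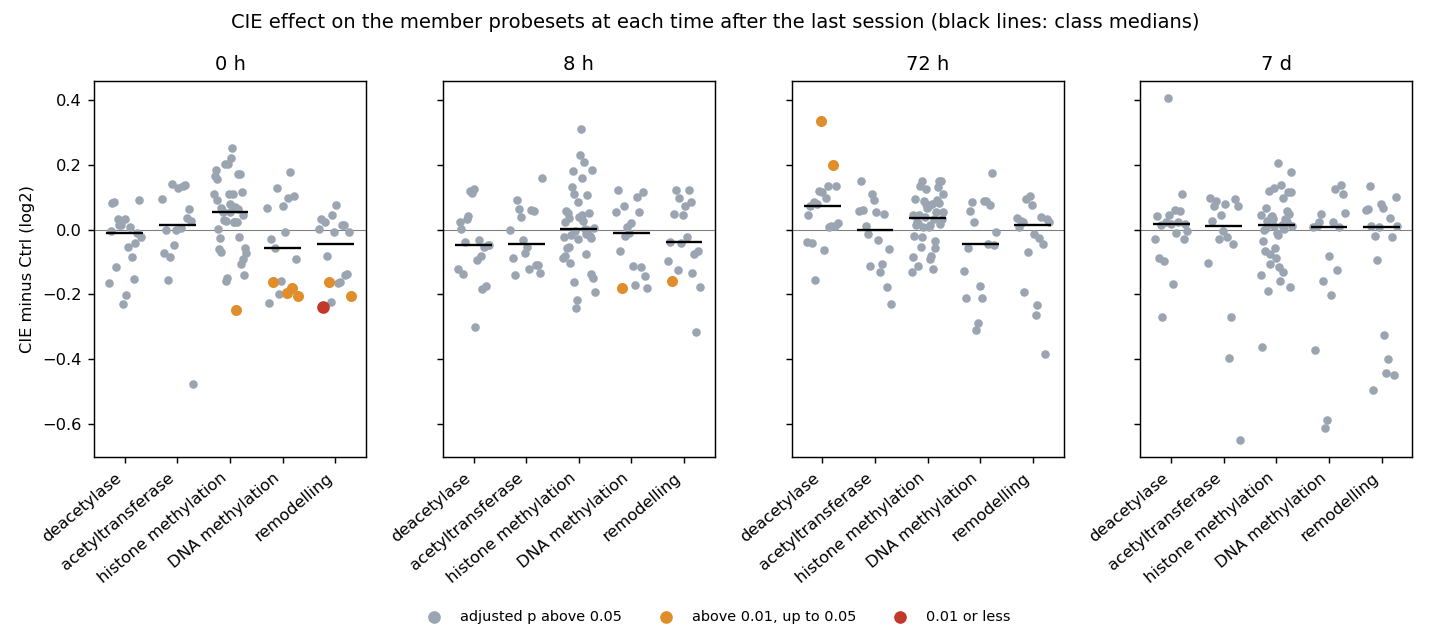
CIE minus Ctrl (log2, y axis) of each of the 110 member probesets, by class (x axis) and time (panels); black lines are class medians and colours the adjusted p. The medians lie between -0.06 and 0.07, the 8 coloured points at 0 h are all below 0, and the 2 at 72 h, both deacetylases, are above it.

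By class, the median differences were small. At 0 h the DNA methylation genes had a median of -0.06 and the remodellers -0.04, while the histone methylation genes had 0.05, beside 0.00 over all probesets. The 8 probesets of the DNA methyltransferases stood at a median of -0.17 and 7 of the 8 had lower CIE means. They are 3 of Dnmt1 and 5 of Dnmt3a, and 51.1% of all probesets had lower CIE means at 0 h. Deacetylases had medians of -0.01 at 0 h, -0.05 at 8 h, 0.07 at 72 h and 0.02 at 7 d. At 72 h, 15 of their 19 probesets had higher CIE means, beside 69 of all 110 member probesets and 22442 of all 45037. Among the 33 members with several probesets, all of a gene's probesets had the same sign in 24 at 0 h, but in 14 at 8 h, 16 at 72 h and 14 at 7 d.

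**Figure D2:**
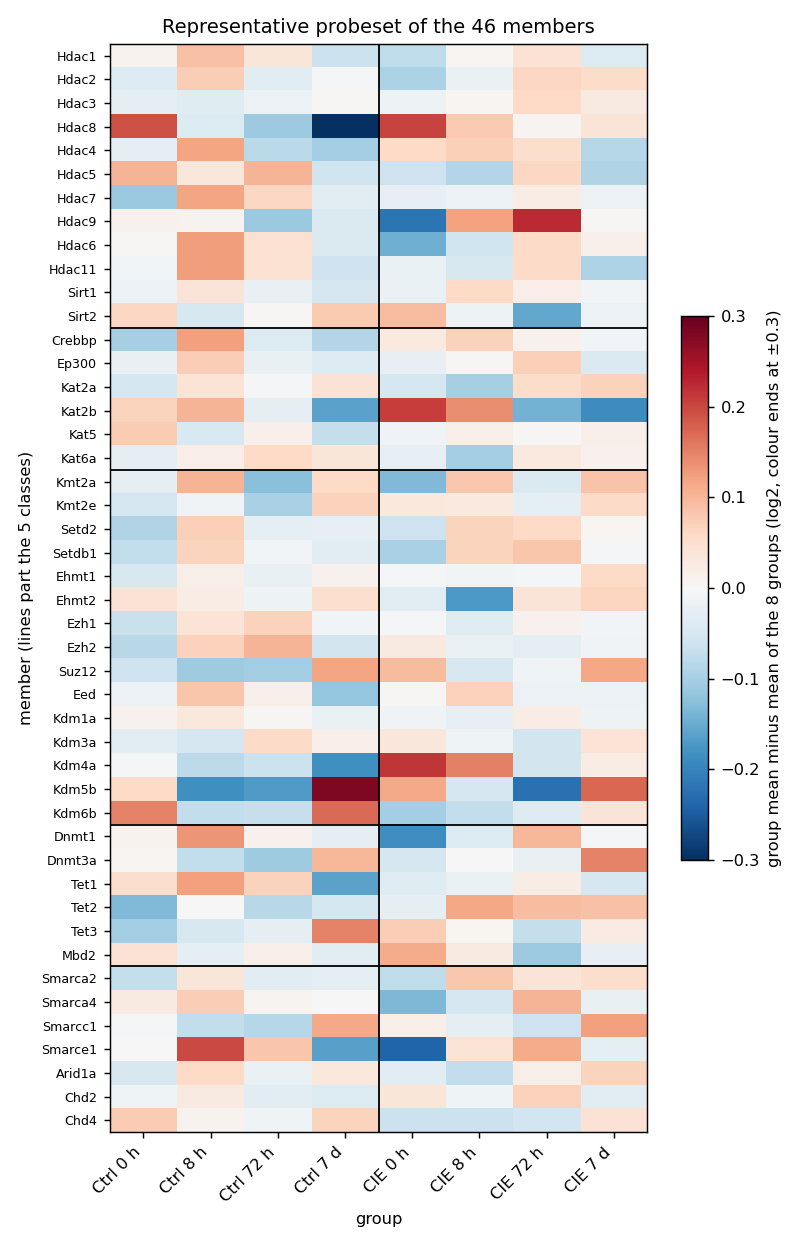
Mean log2 level of the representative probeset of each of the 46 members (rows) in the 8 groups (columns), as the difference from the mean of that probeset's 8 group means; colours end at 0.3 either way. Smarce1 has its lowest mean in CIE at 0 h and Hdac9 its highest in CIE at 72 h.

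Among the remodellers, Smarce1 (1422676_at) gave the one called difference. SMARCE1 (BAF57) is a DNA-binding HMG-box subunit of the BAF complex. At 0 h its log2 level in the 6 Ctrl mice ran from 8.95 (median 9.02) to 9.13, and in the 6 CIE mice from 8.66 (median 8.81) to 8.85. All 6 CIE mice were thus below every Ctrl mouse, which was the case for 3 member probesets at 0 h and for 1.35% of all probesets. The difference was -0.24 (SE 0.0416, 95% interval -0.32 to -0.16, adjusted p by limma 0.000161). With only the 0 h groups in the fit, limma's adjusted p was 0.0371. At 8 h Ctrl mice ran from 9.14 (median 9.23) to 9.31 and CIE mice from 9.02 (median 9.08) to 9.09, again without overlap, and the difference of -0.16 had a limma adjusted p of 0.0406. At 72 h it was 0.03 (adjusted p 0.893 in limma). At 7 d the Ctrl mice ran from 8.73 to 8.95 around 8.87, and the 4 CIE mice had 8.93, 9.01, 9.02 and 9.03. Here 3 of the 4 CIE mice were above every Ctrl mouse, the difference was 0.13 (SE 0.0465), and limma's adjusted p was 0.817.

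The effect on Smarce1 changed between times (limma F test on the 4 differences, adjusted p 0.000259). From 0 h to 72 h it moved by 0.27 (adjusted p 0.00611 in limma) and from 0 h to 7 d by 0.37 (adjusted p 0.000371). Within CIE mice the level climbed by 0.35 from 0 h to 72 h (limma adjusted p 4.75e-08). The air-breathing mice were not level either: their mean was 0.20 higher at 8 h than at 0 h (adjusted p 0.00587 by limma), and at 7 d it differed from 0 h by -0.16 (adjusted p 0.0125), which enters the 0.37 above.

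The other 2 Smarce1 probesets did not share this. Probeset 1422675_at had a 0 h difference of 0.03 (95% interval -0.08 to 0.14, limma adjusted p 0.855), and the dim 1430822_at one of 0.08 (adjusted p 0.649 in limma). For the former, the interval excludes a loss of the size seen on 1422676_at. Whether the probesets read different transcripts was not tested.

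**Figure D3:**
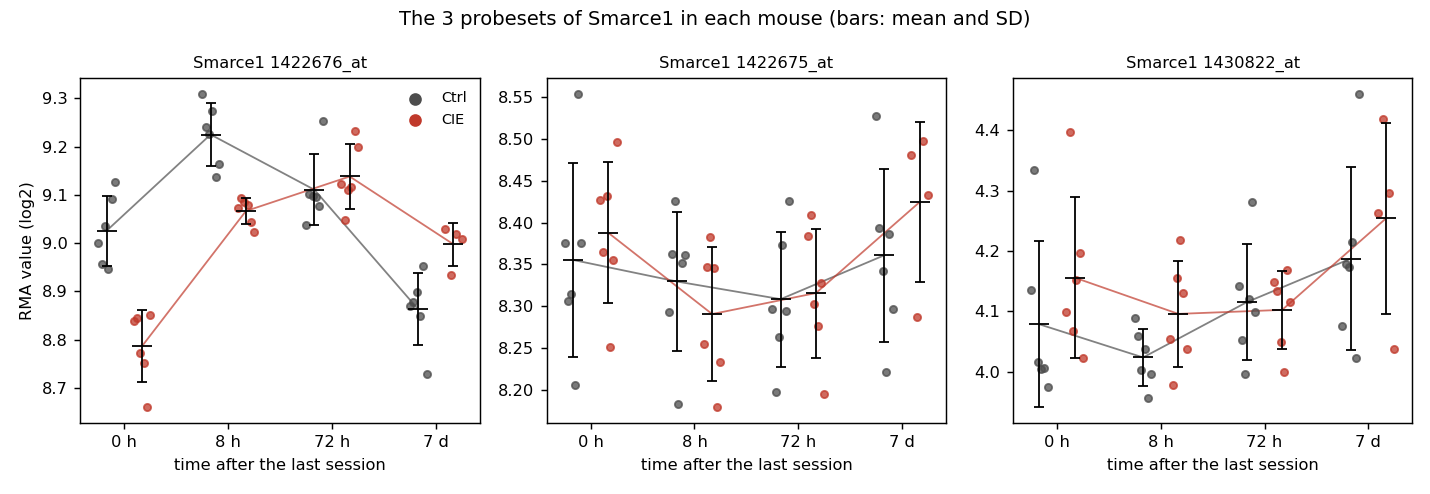
Log2 level of the 3 Smarce1 probesets (panels, each with its own y axis) in every mouse, by time and group; points are mice, bars the group mean and SD, and lines join the means. On 1422676_at the 6 CIE mice lie below the 6 Ctrl mice at 0 h and 8 h, and on the others the groups overlap at those times.

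SMARCA4 (BRG1), an ATPase that drives BAF, was read by 1426804_at. At 0 h the Ctrl mice ran from 10.41 (median 10.52) to 10.65 and the CIE mice from 10.26 (median 10.33) to 10.50, and 4 of the 6 CIE mice lay under the whole Ctrl range. The difference was -0.16 at 0 h (adjusted p 0.0417 by limma), -0.12 at 8 h (0.273) and 0.09 at 72 h (0.426). Over time the CIE mice differed on this probeset (limma F test, adjusted p 0.00392), with a mean 0.24 higher at 72 h than at 0 h. On 1426805_at (mean level 8.66) the CIE course was not called. Its CIE mice ran from 8.23 to 8.88 at 0 h and from 7.78 to 8.89 at 72 h. The CIE mean there was below the Ctrl mean at both times. Smarcc1, a core scaffold subunit, had 1 dim probeset (1459824_at, mean level 5.48) on which all 6 CIE mice were below every Ctrl mouse at 0 h and at 8 h. It ran from 5.40 (median 5.51) to 5.64 in Ctrl and from 5.25 (median 5.33) to 5.35 in CIE at 0 h, a difference of -0.21 (limma adjusted p 0.0205), with -0.18 at 8 h (0.12). Its other 3 probesets differed by -0.08 to 0.02 at 0 h. Chd4, the ATPase of the NuRD complex, was also without overlap at 0 h on 1451295_a_at, at 10.07 to 10.20 in Ctrl and 9.89 to 10.06 in CIE. That difference of -0.14 had a limma adjusted p of 0.0806.

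Among the DNA methylation genes, DNMT1 copies methylation onto new DNA strands and is also present in neurons that no longer divide. On 1422946_a_at the Ctrl mice ran from 9.15 (median 9.29) to 9.40 and the CIE mice from 9.06 (median 9.13) to 9.18 at 0 h. At 8 h Ctrl mice ran from 9.38 (median 9.48) to 9.59 and CIE mice from 9.20 (median 9.31) to 9.39. At either time 5 of the 6 CIE mice lay under the whole Ctrl range. The differences were -0.16 (SE 0.0422, limma adjusted p 0.0143) and -0.18 (adjusted p 0.0151), or -10.6% and -11.8%. At 72 h it was 0.06 and at 7 d 0.02. Its other 2 probesets had the same signs early: 1435122_x_at was at -0.20 at 0 h (adjusted p 0.0114 in limma) and -0.17 at 8 h (0.0757), and 1447877_x_at at -0.18 (0.0459) and -0.12 (0.435). The suffix x marks probesets that may also bind other transcripts.

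Over the 4 times together, 1422946_a_at and 1435122_x_at of Dnmt1 differed between CIE and Ctrl (limma F test, adjusted p 0.0019 and 0.00454). Within the CIE mice all 3 Dnmt1 probesets changed with time (adjusted p 1.18e-05, 0.000502 and 0.000149 by limma F test), and 1422946_a_at stood 0.30 higher at 72 h than at 0 h. The Ctrl course of 1422946_a_at was called as well (limma F test, adjusted p 0.00136), with a Ctrl mean 0.20 higher at 8 h than at 0 h (adjusted p 0.00548), and those of 1435122_x_at and 1447877_x_at were not (0.0615 and 0.0227).

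Dnmt3a, which sets methylation on unmethylated DNA, gave a less uniform picture over its 5 probesets. On 1460324_at the 0 h Ctrl mice ran from 9.65 (median 9.77) to 9.92 and the CIE mice from 9.51 (median 9.58) to 9.68, and 5 of the 6 lay under the whole Ctrl range. The difference was -0.21 (SE 0.0516, limma adjusted p 0.0108), with -0.18 at 8 h (0.0715), -0.01 at 72 h and 0.05 at 7 d, and limma's F test over the 4 times gave an adjusted p of 0.00666. The brightest Dnmt3a probeset, 1423063_at, was at -0.06 at 0 h (adjusted p 0.785 in limma) and 1423064_at at 0.13 (0.301). The remaining 1423065_at and 1423066_at varied far more between mice, with 0 h differences of -0.20 and -0.16 beside SEs of 0.23 and 0.212.

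The TET dioxygenases gave no called difference at any time. All 4 Tet1 probesets had lower CIE means at 0 h and at 72 h, as did 3 at 8 h and 2 at 7 d. Tet2 (1455300_at) had a higher CIE mean at all 4 times, by 0.10, 0.12, 0.18 and 0.14. At 72 h its Ctrl mice ran from 9.49 (median 9.59) to 9.63 and its CIE mice from 9.67 (median 9.75) to 9.90, so the groups did not overlap, as on 3 member probesets with higher CIE values at that time and on 1.66% of all probesets. Limma's adjusted p was 0.283. Mbd2, a reader of methylated CG steps, had differences of 0.07 on both probesets at 0 h and of -0.13 and -0.17 at 72 h, none called.

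**Figure D4:**
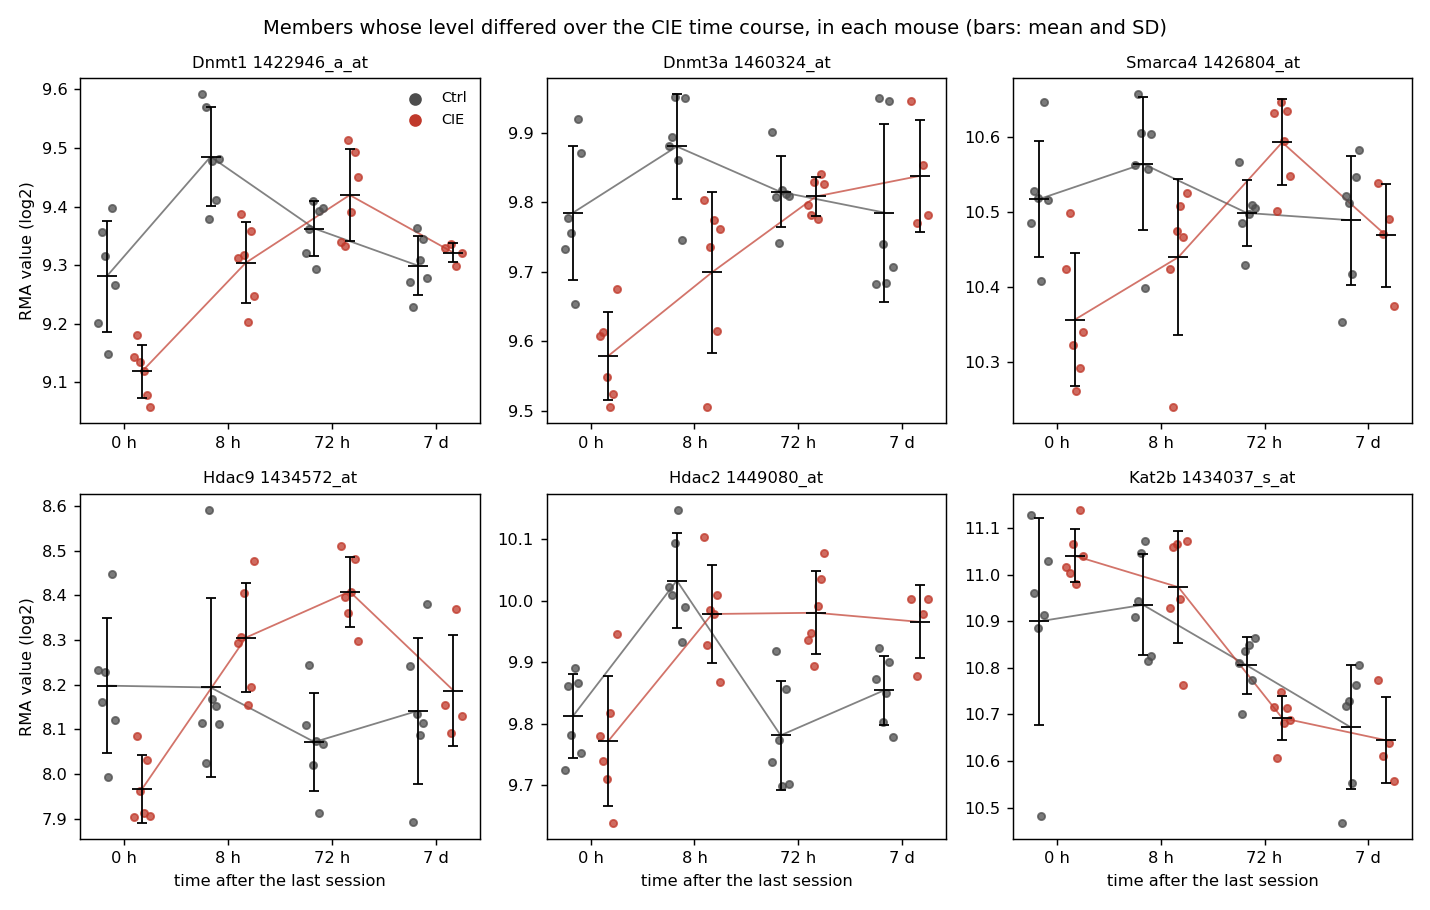
Log2 level of 6 member probesets (panels, each with its own y axis) in every mouse, by time and group; points are mice, bars the group mean and SD, and lines join the means. Dnmt1, Dnmt3a and Smarca4 sit lower in CIE at 0 h, Hdac9 and Hdac2 higher in CIE at 72 h, and Kat2b declines over time in CIE.

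Among the deacetylases, Hdac9 (1434572_at) moved in opposite directions at 0 h and 72 h. HDAC9 is a class IIa enzyme that shuttles between nucleus and cytoplasm and represses MEF2 target genes. At 0 h the Ctrl mice ran from 7.99 (median 8.20) to 8.45 and the CIE mice from 7.90 (median 7.94) to 8.09, a difference of -0.23 (SE 0.077, limma adjusted p 0.0723). At 72 h the Ctrl mice ran from 7.91 (median 8.07) to 8.25 and the CIE mice from 8.30 (median 8.40) to 8.51, so that all 6 CIE mice were above every Ctrl mouse. That difference was 0.34, or 26.3%, with a limma adjusted p of 0.0137. At 8 h it was 0.11 (0.694) and at 7 d 0.05. Neither time passed the threshold of 0.01 by itself in the fit over all groups. At 72 h the adjusted p by limma was 0.0068 with only the groups of that time and 0.00273 with array weights. With the 1st component as covariate it was 0.00657. It stayed above 0.01 with a trend and robust variance (0.012), with quantile normalization again (0.0127) and with arrays centred on their medians (0.0125). The 72 h difference passed in 4 of the 46 fits with 1 array left out.

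Tested over the times together, Hdac9 passed (limma F test of the effect, adjusted p 0.00489, and of its change between times, adjusted p 0.00826). Between 0 h and 72 h the effect moved by 0.57 (SE 0.109, adjusted p 0.0013 in limma). The Ctrl mice gave an F test with adjusted p 0.503 over time, while the CIE mean was 0.44 higher at 72 h than at 0 h (adjusted p 6.9e-05 by limma). The 2nd Hdac9 probeset, 1421306_a_at, was dim (mean level 5.03) and at 0.08 at 72 h and -0.27 at 7 d (limma adjusted p 0.735 and 0.615).

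Other deacetylases also had higher CIE means at 72 h. Hdac2, a class I enzyme of several corepressor complexes, ran on 1449080_at from 9.70 (median 9.76) to 9.92 in Ctrl and from 9.89 (median 9.97) to 10.08 in CIE, where 5 of the 6 lay over the whole Ctrl range. The difference was 0.20 (SE 0.0476, limma adjusted p 0.0196), while the brighter 1445684_s_at was at 0.10 (0.297). The dimmest of the 3 Hdac2 probesets, 1439704_at (mean level 6.71), went the other way at 72 h, with a difference of -0.06. Hdac4, class IIa like Hdac9, did not overlap at 72 h on 1454693_at, with 8.05 to 8.235 in Ctrl and 8.236 to 8.40 in CIE (difference 0.13, adjusted p 0.176 in limma). Of the 14 class I and IIa probesets, 11 had higher CIE means at 72 h, beside 69 of all 110 member probesets and 22442 of all 45037.

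Earlier, several deacetylases had lower CIE means. Of the 19 deacetylase probesets, 11 were lower at 0 h (57.9%, against 51.1% of all). At 8 h, 12 were lower (63.2%, against 50.9% of all). All 3 Hdac2 probesets were lower at both times. For Hdac6, which acts largely on tubulin in the cytoplasm, the differences were -0.15 at 0 h (limma adjusted p 0.0839) and -0.18 at 8 h (0.0663). Hdac11, the class IV enzyme, was without overlap at 8 h on 1451229_at, at 11.32 to 11.48 in Ctrl and 11.19 to 11.31 in CIE, as were 3 member probesets with lower CIE values at 8 h and 0.577% of all. That difference was -0.17 (adjusted p 0.101 by limma). Hdac8, a class I enzyme, had the largest 7 d difference of the representative probesets, 0.41 on 1428933_at (adjusted p 0.847 by limma). Hdac1, Hdac3, Hdac5 and Hdac7 had differences between -0.16 and 0.09 at 0 h. The sirtuins Sirt1 and Sirt2 were at 0.00 and 0.03 at 0 h and had no called difference at any time.

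The acetyltransferases showed no called difference. The smallest adjusted p values by limma were 0.152 for Crebbp (1435224_at, 0.13) at 0 h, 0.248 for Kat2a (1426783_at, -0.14) at 8 h and 0.358 for Ep300 (0.09) at 72 h. The 5 probesets of the MYST enzymes Kat5 and Kat6a ranged from -0.16 to 0.14 at 0 h. Kat2b (PCAF) declined over time in CIE mice on 1434037_s_at (limma F test, adjusted p 5.85e-05): against 0 h, the mean differed by -0.35 at 72 h (adjusted p 0.000396) and by -0.40 at 7 d (adjusted p 0.000604). The CIE mice ran from 10.98 (median 11.03) to 11.14 at 0 h and from 10.61 (median 10.70) to 10.75 at 72 h. Ctrl mice were also lower at 7 d than at 0 h (-0.23, adjusted p 0.0381 by limma), and the change of the CIE effect over time did not pass (F test, adjusted p 0.449). Kat2b had 3 probesets, and the CIE course was called on this 1 only. On 1450821_at the limma F test gave an adjusted p of 0.0365. On 1457809_at the CIE mice ran from 6.14 to 6.36 at 0 h and from 6.00 to 6.46 at 72 h.

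The histone methylation genes had no called difference at any time. Of the 13 probesets of the Polycomb genes Ezh1, Ezh2, Suz12 and Eed, 12 had higher CIE means at 0 h (median 0.12). The 13 are not separate genes: 6 are of Suz12 and 4 of Ezh1. Over all probesets, 22009 of 45037 had higher CIE means at 0 h. Suz12 on 1427253_s_at ran from 8.90 (median 9.04) to 9.18 in Ctrl and from 9.12 (median 9.25) to 9.37 in CIE, with a difference of 0.20 (limma adjusted p 0.0769). Kdm6b, a demethylase of the Polycomb mark, had the opposite sign on 1447612_x_at: 8.48 (median 8.71) to 8.88 in Ctrl and 8.32 (median 8.46) to 8.53 in CIE. Its difference was -0.25 (adjusted p 0.016 in limma), while its other 2 probesets were at 0.02 and -0.09. The 15 probesets of the methyltransferases Kmt2a, Kmt2e, Setd2, Setdb1, Ehmt1 and Ehmt2 ranged from -0.16 to 0.25 at 0 h and from -0.09 to 0.11 at 72 h.

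Kdm4a, which removes methyl groups from H3K9 and H3K36, had higher CIE means on 1435340_at at 0 h, 8 h and 7 d (0.22, 0.23 and 0.21) and not at 72 h (0.01). At 7 d the Ctrl mice ran from 7.72 (median 7.82) to 7.93 and the 4 CIE mice had 7.95, 7.99, 8.05 and 8.13, without overlap, as on 2 member probesets at that time and on 0.544% of all probesets. Limma's adjusted p was 0.957, and 0.0306 for the F test over the 4 times. Ehmt2 (G9a), a writer of H3K9 methylation, was at -0.19 at 8 h (1460692_at, adjusted p 0.0915 by limma).

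Over the 4 times together, 5 member probesets of 4 genes differed between CIE and Ctrl (4.55%, against 2.84% of all): those of Smarce1 (limma F test, adjusted p 5.2e-05), Dnmt1, Dnmt3a and Hdac9 given above. The effect changed between times on 2, of Smarce1 and Hdac9, against 1.04% of all. With each of the 46 arrays left out in turn, the 0 h call of Smarce1 passed in all 46 fits (highest adjusted p by limma 0.00124), as did the F tests of Smarce1 and of 1422946_a_at of Dnmt1. The Hdac9 effect passed in 42 fits, and missed the threshold without Ctrl 72 h replicate 34 or 52 or CIE 72 h replicate 3 or 63 (adjusted p up to 0.013 by limma). Its change between times passed in 20 of the 46, with an adjusted p up to 0.019 without Ctrl 0 h replicate 56. For 1435122_x_at of Dnmt1 the effect passed in 42, missing without CIE 0 h replicate 26, 43, 57 or 67 (up to 0.0113), and for Dnmt3a in 35 (up to 0.0155 without Ctrl 0 h replicate 64). The course over the CIE groups passed in all 46 fits for the probesets of Dnmt1, Dnmt3a, Hdac9, Kat2b and Smarce1 named above. It passed in 44 for Hdac2, missing without CIE 0 h replicate 26 or 57, and in 40 for Smarca4, missing without CIE 0 h replicate 26, 43 or 57 or CIE 72 h replicate 3, 35 or 63.

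Levels also differed between times within the Ctrl mice. The F test over the 4 Ctrl groups called 27 member probesets of 17 genes (24.5%, against 10.9% of all), and that over the 4 CIE groups 11 of 9 genes (10%, against 7.76% of all), with 5 in both. Of the 27, 18 were lowest at 8 h and highest at 7 d, and the other 9 highest at 8 h. Only 7 of the 27 were representative probesets. Chd4 on 1438476_a_at is an example: its Ctrl means spanned 1.23 (limma F test, adjusted p 0.000123), while those of the brighter 1451295_a_at spanned 0.09 (0.349). For Dnmt3a, 1423065_at spanned 1.42 and 1460324_at 0.0953.

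The wide courses went with the 1st principal component. On 22 of the 110 member probesets (20%) the levels correlated with it above 0.7 over the 46 arrays, against 5.6% of all probesets; the component is computed from all probesets, these included. They belong to 15 genes, only 2 are representative probesets, and 15 of the 27 Ctrl calls are among them. With the component as a covariate, an alternative added after the data were seen, 2 of the 27 Ctrl calls passed, Hdac2 on 1449080_at (adjusted p by limma 0.00185) and Smarce1 on 1422676_at (0.00565). Of the 11 CIE calls, 9 passed, and those of Tet1 on 1429448_s_at (0.747; passed in 31 of the 46 fits with 1 array left out) and Smarca2 on 1452333_at (0.204) did not. Of all probesets, 2.66% were called over the Ctrl course with the covariate (10.9% without) and 6.73% over the CIE course (7.76% without). The component itself differs between times, so the covariate also takes out part of a time course. The hybridization batch of each array is not given in the sources used here, and its part in the component was not tested.

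**Figure D5:**
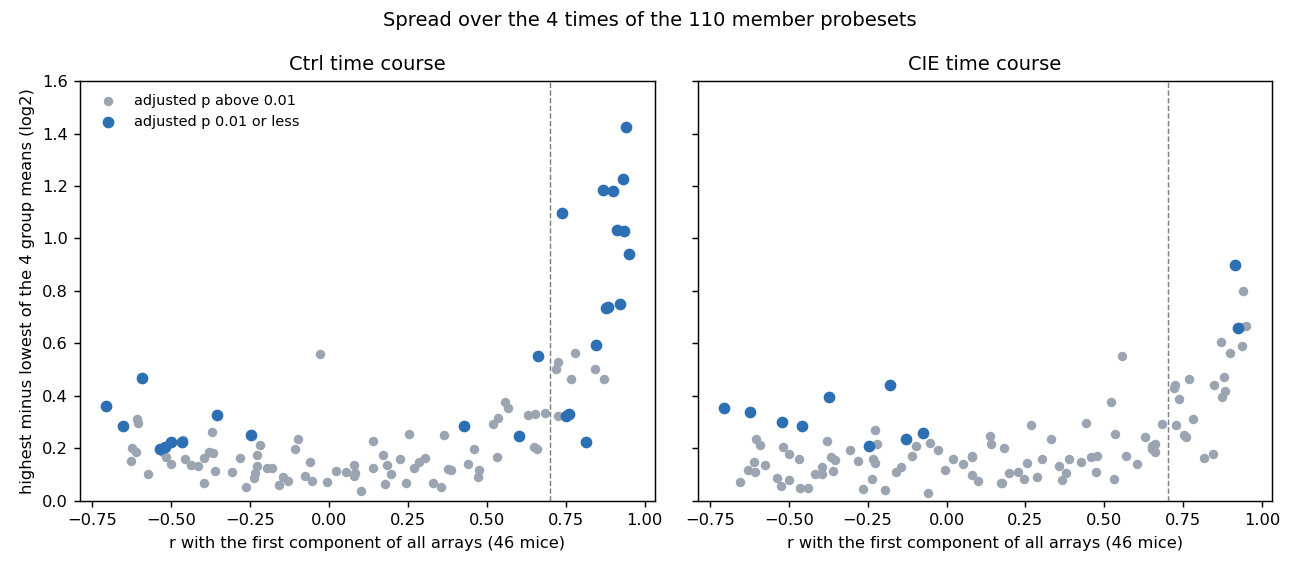
Range of the 4 group means (log2, y axis) of each member probeset in Ctrl (left) and CIE (right) against its correlation with the 1st principal component (x axis, dashed line at 0.7); colours give the F test. Ranges above 0.7 in Ctrl lie to the right of the dashed line, among them those of Dnmt3a, Chd4 and Crebbp.

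The same probesets bear on 7 d. Of the 10 member probesets with a lower CIE mean and an unadjusted p under 0.05 at that time (9.09%, against 2.39% of all), 7 were among the 22, including 1423065_at of Dnmt3a (-0.62, limma adjusted p 0.917), 1445843_at of Chd2 (-0.40, 0.764) and 1459804_at of Crebbp (-0.65, 0.847). The 22 had a median 7 d difference of -0.24, and 20 had a lower CIE mean. On the component itself the 4 CIE mice at 7 d scored from 12.7 to 21.0 and the 6 Ctrl mice from 17.3 to 41.4. With the component as covariate, the median 7 d difference of the 22 was -0.06 and 12 had a lower fitted CIE mean. The values for the same 3 probesets were then -0.29, -0.26 and -0.46. No probeset was called at 7 d with or without it, so the covariate cannot end a call there. The 22 were picked for their correlation with the component, on which CIE and Ctrl mice differ at 7 d. Smaller differences with it as covariate were thus built in and decide nothing.

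Of 77 further genes of the same classes (corepressors, bromodomain readers, other methyltransferases and demethylases, MBD proteins and other remodelling subunits), 70 were measured and none was called at any single time. Their median differences were -0.03, -0.04, 0.03 and 0.02 at 0 h, 8 h, 72 h and 7 d. Over the 4 times together 2 of the 70 were called, a share near the 2.84% of all probesets. They were Mta3, a NuRD subunit (limma F test, adjusted p 0.00814), and Sin3b, a corepressor scaffold (0.00681). Both had higher CIE means at 0 h, by 0.18 (adjusted p 0.0107 by limma) and 0.20 (0.0213), the opposite sign to the 8 member probesets at an adjusted p of 0.05 or less, and lower ones at 72 h (-0.11 and -0.10). The change of the effect between times was called on none of the 70 (adjusted p by limma F test 0.0265 and 0.0211 for this pair).

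Markers of several cell types differed at the same times. At 0 h, 2 of 4 mural cell markers, Kcnj8 and Vtn, were called lower, with an average level of the 4 of 9.46 to 9.73 in Ctrl and 9.11 to 9.36 in CIE mice, the only 1 of 11 marker lists whose groups did not overlap then. At 0 h 1 of 4 choroid plexus markers, Kl, was called higher, with list levels of 6.69 to 7.28 in Ctrl and 7.05 to 7.55 in CIE. Single 0 h markers between 0.01 and 0.05 by limma were P2ry12 of microglia (-0.38, adjusted p 0.0232), Tek of endothelium (-0.30, 0.024), Aqp4 of astrocytes (-0.31, 0.0373), Rgs5 of mural cells (-0.31, 0.048) and Crh of BNST neurons (0.71, 0.0237). Their lists did not all go the same way. Differences at 0 h ran from -0.10 to 0.71 over the BNST GABA markers, -0.31 to 0.10 over astrocytes and -0.38 to 0.05 over microglia. All endothelial (-0.30 to -0.02) and mural markers (-0.55 to -0.16) had lower CIE means.

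At 72 h no marker was called, but 6 of the 11 lists did not overlap. CIE levels were lower for microglia (10.27 to 10.48 in Ctrl, 9.85 to 10.21 in CIE, smallest adjusted p by limma 0.0111), oligodendrocytes (12.32 to 12.42 and 12.08 to 12.27, with 0.0125 for Mag), their precursors (9.29 to 9.37 and 9.10 to 9.26) and astrocytes (11.234 to 11.361 and 10.934 to 11.228). They were higher for the 8 markers of BNST GABA neurons (10.63 to 10.88 and 11.11 to 11.36, smallest adjusted p 0.021) and for 5 general neuron markers (12.59 to 12.64 and 12.66 to 12.72). At 8 h and 7 d all 11 lists overlapped. The part of these markers in the 0 h differences of Smarce1, Dnmt1 and Dnmt3a and the 72 h differences of Hdac9 and Hdac2 was not tested.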

How the data were processed

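The authors deposited log2 expression values: per the labels and the methods, RMA summaries of each probeset, quantile normalised within and then across hybridization batches and adjusted for batch with ComBat. These log2 values were used unchanged, and 0 columns were left unmatched to a sample. Probesets were named from the platform annotation: 34945 had 1 symbol, 932 several and 9160 none, and only the first kind named a gene. Means of the 8 groups were fitted over the 46 arrays in limma 3.58.1 (R 4.3.3), with 38 residual degrees of freedom, with Benjamini-Hochberg adjustment over all 45037 probesets within each of 4 CIE minus Ctrl comparisons and 4 F tests (effect, its change, Ctrl course, CIE course). The script was tested on simulated data.

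The genes described were drawn from the members called in any test, the smallest p in each class and comparison, and the 3 smallest in each F test. Some that met this rule are not described by themselves, such as Kdm5b at 7 d and several members called over the Ctrl course. Those given for a lack of overlap or a tie to the component were added after their values were seen. The lists, like the members, were chosen with earlier results of these data known. Promoter windows came from RefSeq (GRCm38.p6); 8 members without an entry, Smarce1 among them, have none. Alternatives were fitting only the groups compared, other array scaling, array weights, a trend with robust variance, dim probesets left out, a threshold of 0.05, representative probesets, each array left out, and the added covariate. Array signals have no read depth, so the number of arrays limits the precision. Batch adjustment before deposit can shrink or enlarge group differences where batches and groups are unbalanced.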

Additional observations from a re-analysis of the deposited data

Results flagged for a closer look

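A mouse stood apart from its group in 2 of the 64 groups checked, on the 8 probesets with a called CIE difference or among the 3 smallest p of an F test; chance gives about 1 in 20. For Hdac9 (1434572_at), Ctrl 8 h replicate 50 was at 8.59, with the next Ctrl mouse at 8.17. Without it the 8 h difference was 0.19 in place of 0.11 (limma adjusted p 0.23 in place of 0.694), and the F test of the change between times had an adjusted p of 0.00101. For Smarce1 (1422676_at), Ctrl 72 h replicate 68 was at 9.25, with the next at 9.10. Without it the 72 h difference was 0.06 in place of 0.03 (limma adjusted p 0.708). The CIE effect also differed between times on the same probesets of both genes, by the limma F test of its change (adjusted p 0.00826 for Hdac9 and 0.000259 for Smarce1).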

How the results depend on the processing

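No paired analysis was possible because the groups share no replicate numbers. At 0 h, 1 member probeset was called; this became 0 when only the groups compared were fitted (Smarce1 then at -0.24 with a limma adjusted p of 0.0371), 2 with array weights, 3 with a trend and robust variance, 5 over probesets at or above the median level, 8 at an adjusted p of 0.05 and 5 with the 1st component as covariate. At 8 h the 0 became 2, 1, 2 and 1 with weights, the level filter, 0.05 and the covariate. At 72 h the 0 became 1 with the compared groups alone and 2 with weights, the level filter, 0.05 and the covariate. At 7 d it was 0 in each of these. The 5 of the effect F test became 8 with weights, 11 at 0.05 and 3 on representative probesets, and the 2 of its change 5, 4 and 5 with weights, the level filter and 0.05. The 27 of the Ctrl course became 41 at 0.05, 7 on representative probesets and 2 with the covariate. The 11 of the CIE course became 26 with weights, 28 at 0.05 and 5 on representative probesets. With 1 array left out the counts ran from 1 to 3 at 0 h (3 without Ctrl 0 h replicate 48), 0 to 1 at 8 h, 0 to 2 at 72 h, 0 to 0 at 7 d, 3 to 6 for the effect, 1 to 3 for its change (1 in 25 of 46 fits), 19 to 29 for the Ctrl and 8 to 12 for the CIE course, and Smarce1 at 0 h from -0.26 to -0.21. The cause of these shifts was not tested. The 4 to 6 mice a group limit the precision.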
